A study of Pyrus ussuriensis with 15 samples.

Results

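Tissue of the pear *Pyrus ussuriensis* Maxim sampled on day 9 of adventitious root development were compared with that of day 0, the start of the course. The comparison took the 3 libraries labelled day 9 and the 3 labelled day 0, which are 6 of the 15 libraries of the study, and asked which gene models had changed by that stage of root formation. The test of day 9 against day 0 was made once over all models together and once within narrow bands of model length, because the day 9 changes depended on length. Levels and read counts, and the choices of models made from them, were not corrected for length unless stated. Per the labels' protocols, adventitious buds subcultured for 25 days were rooted on an MS-based agar medium (7.5 g agar) with 30 g/L sucrose and 0.5 mg/L of IBA, the auxin indole-3-butyric acid, at pH 6.0. Day 0 and day 9 share this plant material, the library kit (TruSeq, from 1 µg of total RNA) and the medium as the labels describe it, and the labels do not say whether day 0 was taken before contact with the auxin. The tissue label reads adventitious roots on both days, day 0 included. Which cells each library held could not be checked with tissue markers, since the deposited table pairs no model with a gene name. Whether the 3 numbered libraries of a day are separate cultures is not in the labels, so each p-value here rests on a spread between libraries that may be technical.

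An adventitious root arises from cells of a stem or shoot that are not part of an existing root. Auxin starts the process: cells near the vascular tissue are reprogrammed, divide to form a root primordium, and the primordium then organises an apical meristem and grows out. IBA is the auxin commonly added to rooting media of fruit trees and acts largely after its conversion to indole-3-acetic acid in the plant. The stage of the tissue at day 9 is not given in the labels.

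The measurement was the number of sequencing reads counted on each gene model of *Pyrus bretschneideri*, another pear. The table lists 44681 models, of which 37533 had a count in at least 1 library and 29134 had enough counts to be tested. Total counts ran from 14357737 to 15367355 at day 0 and from 11953240 to 15899404 at day 9, with day 9 replicate 2 the shallowest of the 15 libraries. Levels are given as CPM, counts per 1000000 of a library total scaled by TMM (a factor that sets the bulk of models level between libraries). Across the tested models, log2 CPM correlated between libraries of 1 day at 0.963 to 0.969 at day 0 and 0.971 to 0.978 at day 9 (Pearson's r across models, which are not independent replicates). A model was called changed at a false discovery rate under 0.05 in edgeR's quasi-likelihood test, with p-values adjusted by Benjamini-Hochberg over all 29134 models.

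About as many models were called changed as were not. Without regard to length, 14484 of 29134 models were called, or 49.7%, with 6708 higher at day 9 (23.0%) and 7776 lower (26.7%). A change of at least 2-fold was reached by 2707 of the higher models (9.29%) and 4077 of the lower ones (14.0%). The middle of the distribution lay near 0, with a median log2 change of -0.02 and quartiles of -0.64 and 0.53. In bulk tissue, fewer cells of a type and less RNA per cell cannot be told apart.

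The direction of these changes followed the length of the model. For all models with the Pbr prefix this length is a multiple of 3, as a coding length without untranslated regions would be. The tested models were cut into 20 bands of nearly equal number, 1416 to 1498 models each. In the shortest band, 150 to 318 bases, the median log2 change was 0.49, and 606 models were called higher and 185 lower. In band 11, 1156 to 1251 bases, the median was 0.04, with 285 higher and 304 lower. In the longest band, 3222 to 16572 bases, the median was -0.83, with 58 higher and 1009 lower. From each band to the next longer one the median fell in 17 of 19 steps.

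Each day 9 library showed this trend by itself. Against the day 0 mean, the median of the shortest band was 0.44, 0.49 and 0.50 on the log2 scale in day 9 replicates 1, 2 and 3. The median of the longest band was -0.81, -0.77 and -0.86 in the same libraries. No other library came near these values: the longest band minus the shortest ran from -1.37 to -1.24 over the 3 day 9 libraries and from -0.16 to 0.22 over the 12 others. The Spearman correlation of a library's change with model length across the tested models ran from -0.396 to -0.340 at day 9 and from -0.141 to 0.10 in the other 12 libraries. The strongest of these 12 was day 0 replicate 2, at -0.141.

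**Figure D1:**
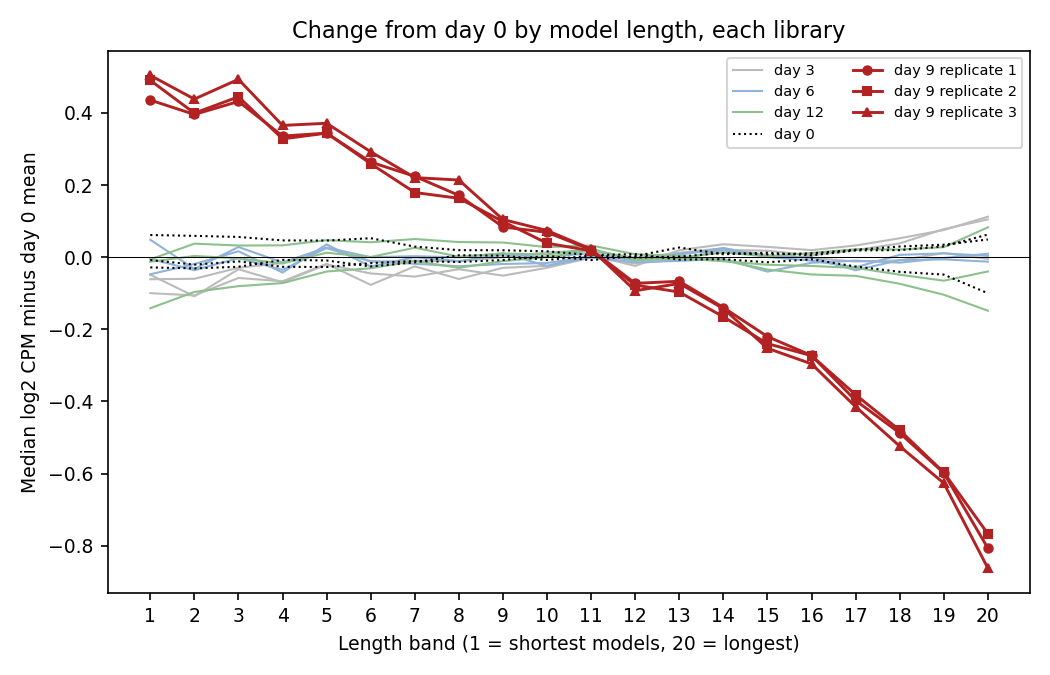
Median log2 CPM minus the day 0 mean (vertical axis) in each of 20 length bands of tested models (horizontal axis, shortest to longest), with 1 line per library. The 3 day 9 lines run from 0.44 to 0.50 in the shortest band down to -0.86 to -0.77 in the longest, while the 12 other libraries stay near 0.

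The same shift was seen in where the reads of a library fell. Models of at most 702 bases, the shortest 25% of tested models, held 29.8%, 30.2% and 30.4% of the counts in day 9 replicates 1, 2 and 3, against 23.4%, 24.5% and 22.6% in those of day 0. The groups did not overlap, and their means were 30.1% ± 0.316 and 23.5% ± 0.909 (SD, n = 3 each). Models of at least 1760 bases, the longest 25%, held 21.0% ± 0.402 of the counts at day 9 and 30.4% ± 0.880 at day 0 (SD, n = 3 each). Weighting each model's length by its counts gave a mean of 1284 ± 9.17 bases for the day 9 libraries, below the 1573 ± 34.6 bases of day 0 (SD, n = 3 each). For each of these 3 quantities the days did not overlap and the two-sided exact permutation p was 0.1 (0.1 after Benjamini-Hochberg adjustment over the 3), the smallest that 3 libraries against 3 can give.

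Other properties of the libraries moved with the day as well. The 100 models with the most counts held 13.5% to 14.3% of a library at day 0 and 16.7% to 17.3% at day 9. Between 32979 and 33086 models had a count in each day 0 library, against 32065 to 32749 at day 9. Among the shortest tested models, 99.3% to 99.5% were detected at day 0 and 97.9% to 98.2% at day 9, although the median level of that band was higher at day 9. Whether depth, RNA quality or the making of the libraries plays a part in the length trend was not tested.

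Length and the span on the scaffold go together in these models, so both were examined over the 23638 models with introns. Within the 20 length bands, the Spearman correlation of the log2 change with the bases of span beyond the length (introns) ran from -0.13 to 0.02, with a median of -0.05. Within 20 bands of span, that of the change with length ran from -0.38 to 0.01, with a median of -0.25, and was below -0.2 in 15 bands. In the span bands of up to 1385 bases it was 0.01, 0.01 and -0.01. By median, the correlation with length at like span was thus the larger of the pair, as a description across models.

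The trend was also present at every level of expression. With the tested models cut into 5 groups of equal number by mean log2 CPM over all 15 libraries, the longest band's median minus that of the shortest was -1.10 in the group of lowest expression and -1.56, -1.44, -1.30 and -1.40 in the groups above it. The lowest group, up to a log2 CPM of 1.00, thus had the smallest difference, and the groups above it showed no order with expression.

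To compare each model with others of like length, library sizes were scaled within each of the 20 bands and the test was run again over all models. It called 12325 models, or 42.3%, with 5664 higher (19.4%) and 6661 lower (22.9%). The spread between libraries was nearly the same, at a biological coefficient of variation (common to all models) of 22.8% against 23.0% before. By band, 15.1% to 26.3% of the models were called higher and 19.9% to 28.3% lower. The shortest band now had 226 higher and 328 lower models, and the longest 381 and 410. The longest band covers 3222 to 16572 bases, so its models are less alike in length. It had the largest share called in each direction, and whether the length trend goes on within it was not tested.

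**Figure D2:**
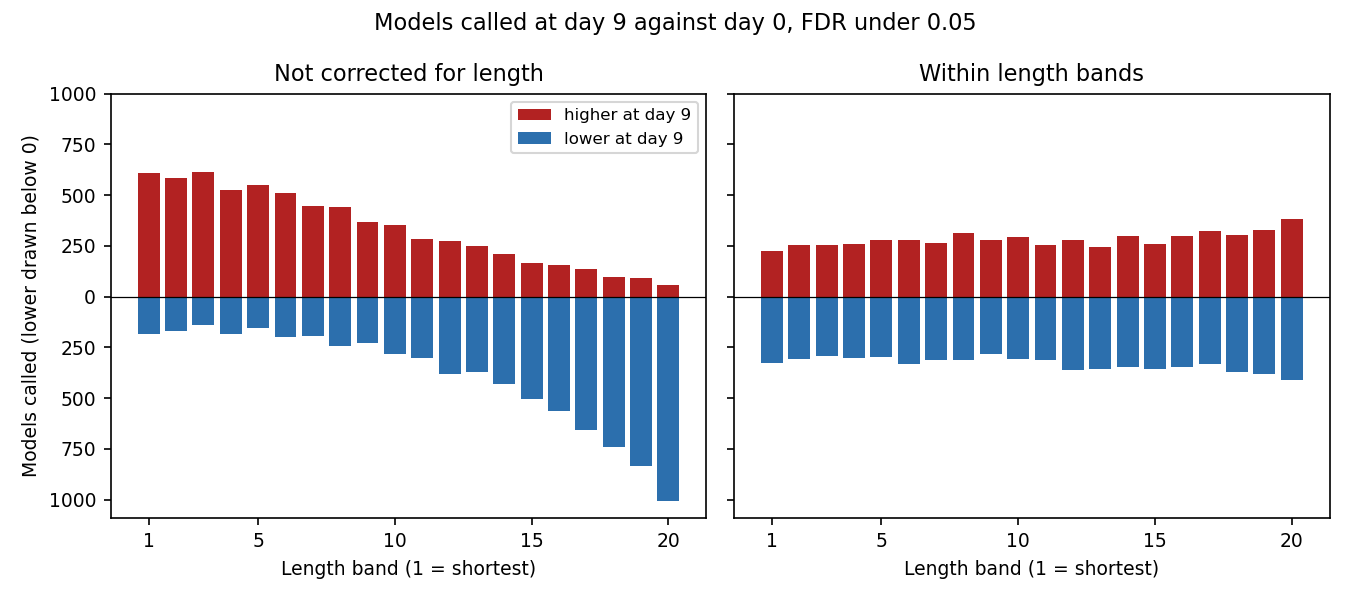
Number of models called higher (red, above 0) and lower (blue, below 0) at day 9 against day 0 in each of 20 length bands, without correction for length (left) and within length bands (right). On the left the higher calls go from 606 in the shortest band to 58 in the longest and the lower calls from 185 to 1009; on the right the longest band has 381 and 410.

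Most calls had the same direction by both comparisons. Higher calls that were lost came mainly from shorter models and lower calls that were lost mainly from longer ones. Of the 6708 models called higher without regard to length, 4371 (65.2%) were also called higher within bands, 2330 were no longer called and 7 were called lower. The 2330 had a median length of 555.5 bases, and their median log2 change went from 0.63 to 0.27. Of the 7776 called lower, 5542 (71.3%) were also called lower within bands, 2084 were no longer called and 150 were called higher. The 2084 had a median length of 2445 bases, and their median log2 change went from -0.67 to -0.17. The 150 that changed sides had a median length of 3570 bases and a median log2 change of -0.39 before and 0.33 after. Another 1143 models, with a median length of 2301 bases, were called higher only within bands, and 1112 models, with a median length of 616.5 bases, were called lower only within bands.

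Within bands the falls outnumbered the rises, and more so for larger changes. At 2-fold or more, 2191 models were higher (7.52%) and 3396 lower (11.7%). At 4-fold or more the numbers were 494 (1.70%) and 1479 (5.08%). At 8-fold they were 141 (0.484%) and 684 (2.35%), and at 16-fold 47 (0.161%) and 335 (1.15%). More models were lower than higher in 19 of 20 bands at any size, and in 20 of 20 at 2-fold and at 4-fold. The 3 day 9 libraries all lay above the 3 day 0 libraries for 7638 models (26.2%) and all below for 8291 (28.5%) on the scale of the bands.

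Individual models are named by a fixed order: the largest rises and falls within bands among models called by both comparisons, with non-overlapping libraries and enough counts, a set of 3776 higher models (13.0%) and 4249 lower ones (14.6%). The files do not pair the IDs with gene names, so 2 IDs are given in each direction, and what they encode is not stated here. None of these 4 models overlaps another model in the table. The nearest models are 819 to 2661 bases away.

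By this order the largest rise belonged to Pbr013951.1, a minus-strand model at 434966 to 435854 of scaffold205.0 with a length of 522 bases. It had 6, 0 and 0 counts in day 0 replicates 1, 2 and 3 and 171, 197 and 392 counts in those of day 9. In CPM this was 0.380, 0 and 0 against 12.8, 17.7 and 25.6, so the model was close to undetected at day 0 and clearly present in each day 9 library. The log2 change was 7.07 ± 0.716 without regard to length and 6.72 ± 0.723 within its band (SE, n = 3 each; adjusted p = 5.03e-06 and 1.44e-05, edgeR's quasi-likelihood test). The rise was not particular to day 9, since the mean level was already 12.4 CPM at day 3 and 12.2 CPM at day 6, and 18.0 CPM at day 12. All of its day 0 counts came from replicate 1, and without that library the fitted log2 change within bands was 10.84, a value that depends on the prior count.

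The next rise was that of Pbr039728.1, a plus-strand model at 188914 to 190943 of scaffold86.0 with a length of 1107 bases. It had 7, 2 and 2 counts at day 0 and 122, 204 and 172 counts at day 9. These are 0.443, 0.131 and 0.137 CPM against 9.10, 18.3 and 11.2 CPM, with no overlap between the days. Its mean level was 2.76 CPM at day 3, 4.88 CPM at day 6 and 4.27 CPM at day 12, so day 9 held the highest mean of the 5 days. The log2 change within its band was 5.63 ± 0.511 (SE, n = 3 each; adjusted p = 3.75e-06, edgeR's quasi-likelihood test), close to the 5.69 ± 0.505 found without regard to length, as the model lies in a band whose median change was 0.06.

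The largest fall by this order belonged to Pbr019916.1, a plus-strand model at 2285882 to 2292420 of scaffold3.0 with a length of 2979 bases. Its counts were 554, 1436 and 1437 at day 0 and 3, 4 and 4 at day 9, or 35.0, 94.4 and 98.3 CPM against 0.224, 0.359 and 0.261 CPM. Day 0 replicate 1 was the lowest of its group and still far above each day 9 library. The decline ran through the course, with means of 6.87 CPM at day 3, 1.51 CPM at day 6 and 0.240 CPM at day 12. The model lies in a band of long models with a median change of -0.61, and its log2 change was -8.06 ± 0.818 without regard to length and -7.48 ± 0.832 within the band (SE, n = 3 each; adjusted p = 5.17e-06 and 1.86e-05, edgeR's quasi-likelihood test).

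Novel01035, a model outside the Pbr set at 300212 to 304543 on the minus strand of scaffold383.0 and 834 bases long, took another course. It had 129, 71 and 162 counts at day 0 and 0, 1 and 1 counts at day 9. Its levels were 8.16, 4.67 and 11.1 CPM against 0, 0.0897 and 0.0653 CPM, and the means on days 3, 6 and 12 were 8.33, 9.38 and 8.37 CPM. The model was thus nearly without counts at day 9 and at about its day 0 level on each other day. The ratio of day 0 to day 9 from the summed counts was 158, with a 95% counting interval of 43.5 to 1311, and the fitted log2 change within its band was -7.29 ± 0.546 (SE, n = 3 each; adjusted p = 8.81e-07, edgeR's quasi-likelihood test), which with 2 counts at day 9 depends on the prior count.

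**Figure D3:**
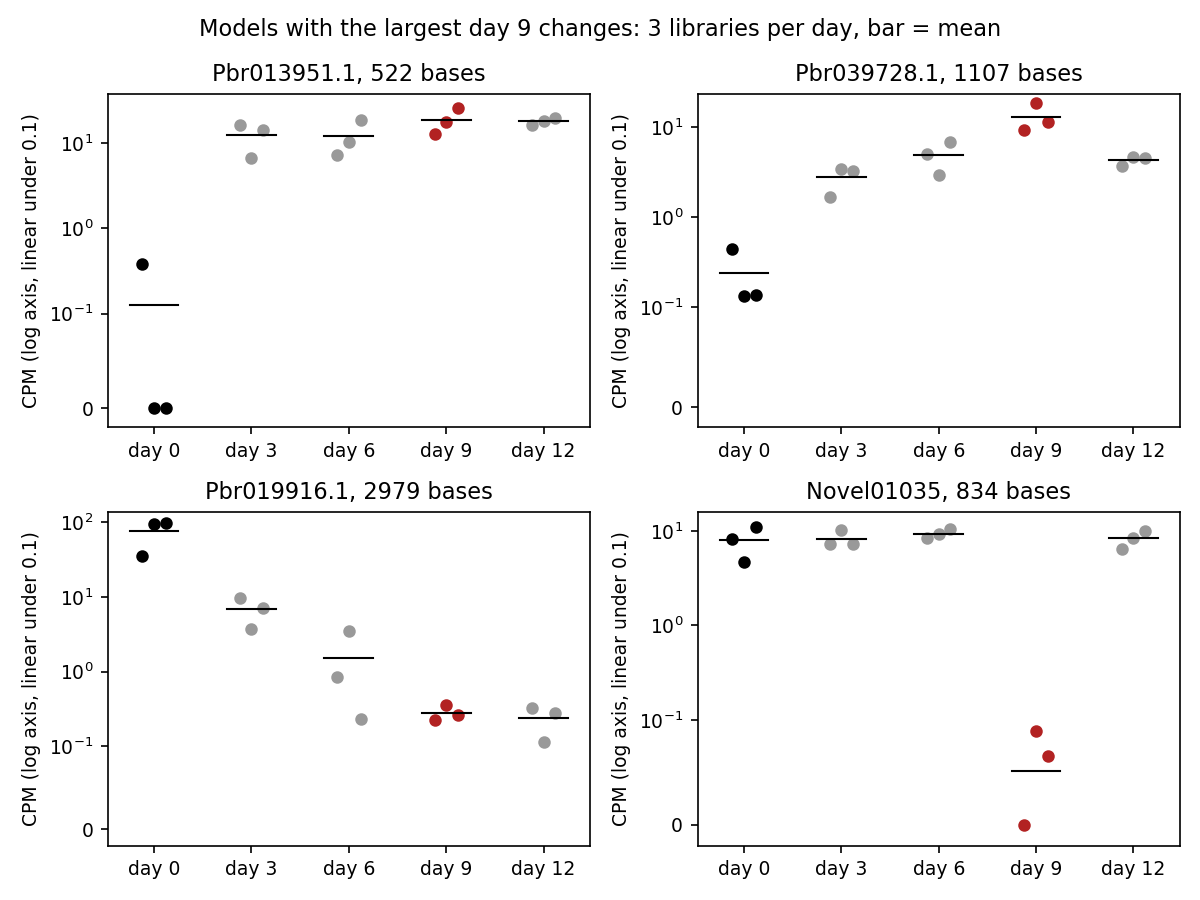
Level in CPM (vertical axis, logarithmic above 0.1 and linear below) of the 4 named models in each of the 3 libraries of day 0, 3, 6, 9 and 12, with the mean as a bar. Pbr013951.1 is up from day 3 on, Pbr039728.1 has its highest mean at day 9, Pbr019916.1 declines through the course, and Novel01035 is at or below 0.0897 CPM at day 9 only.

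The 10 largest rises and 10 largest falls by the same order showed both kinds of course. The rises ran from 4.27 to 6.72 on the log2 scale over lengths of 507 to 1890 bases, and the highest adjusted p among them within bands was 0.00261 by edgeR's quasi-likelihood test. At day 3 the mean of 9 of these 10 was already at least 2 times that of day 0, day 9 held the highest mean of the 5 days in 6, and in 4 the mean at day 12 was back to at most 50% of day 9. Among the 6, means at day 9 and 12 were close for Pbr013951.1 (18.7 and 18.0 CPM) and a model on scaffold40.0 (8.81 CPM each). A model on scaffold658.0, in both the 6 and the 4, had 7.68, 91.4 and 20.5 CPM at day 9. With means of 34.8 CPM at day 3 and 14.9 CPM at day 12, its place in both rested on replicate 2. Another in both, on scaffold514.0, had 261 CPM in day 9 replicate 2 and at most 22.8 CPM in replicates 1 and 3. These still lay above every library of other days. The falls ran from -7.48 to -5.75 over lengths of 327 to 2979 bases, with a highest adjusted p of 0.00117. At day 3, 7 of the 10 were already at 50% of day 0 or less. The other 3 were within 2-fold of day 0 on days 3, 6 and 12 alike.

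One of these 10 rises was concentrated on day 9. The model on the plus strand of scaffold317.0 (147723 to 149965) had 1.27, 1.31 and 1.85 CPM at day 0 and 64.5, 74.8 and 72.1 CPM at day 9. The other days lay in between, at 3.00 to 8.69 CPM in the day 3 libraries, 3.83 to 11.7 CPM in those of day 6 and 7.11 to 7.94 CPM in those of day 12. Its log2 change within the band was 5.55 ± 0.447 (SE, n = 3 each; adjusted p = 1.57e-06, edgeR's quasi-likelihood test).

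Some models lost all counts. In the day 9 libraries, 31 models that had 10 or more counts in every day 0 library were without a single count. The 28 of them that were tested were all called lower by both comparisons, against 26.7% and 22.9% of all tested models. Since the models were chosen by these same counts, such calls follow from the choice and are no further support. Set against a floor of 3 counts summed over the 3 libraries, the 31 models were at least 11.4-fold to at least 87.4-fold lower. They lay on 30 scaffolds and were 300 to 3084 bases long. The opposite, no count at day 0 with 10 or more in every day 9 library, was found for 2 models, at least 34.7-fold and at least 54.9-fold higher. Of the 31, 9 stayed under 10 counts in all 9 libraries of the other days, while 4 had at least 10 counts in each of those 9. One of these 4, at 201271 to 205188 on scaffold421.0, had 50, 42 and 43 counts at day 0, none at day 9 and 20 to 59 counts in every other library.

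Models lower at day 9 than in every other library were then counted over all tested models, a count chosen after such models had been seen. In 281 models (0.965%) each day 9 library lay more than 4-fold below the lowest of the 12 other libraries. In 5 (0.0172%) each lay more than 4-fold above the highest. These counts used CPM not corrected for length. The same count gave 76 below and 148 above for day 12, 4 and 32 for day 0, 2 and 0 for day 3, and 0 and 0 for day 6. At 8-fold, 104 models were below and none above at day 9. No floor was set on the counts. A model without a count at day 9 thus met the rule at any fold once every other library had a count. One such model, Pbr013527.1 on scaffold20.0, had as few as 1 count in a library of another day. For such models a fold of that size is not established.

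**Figure D4:**
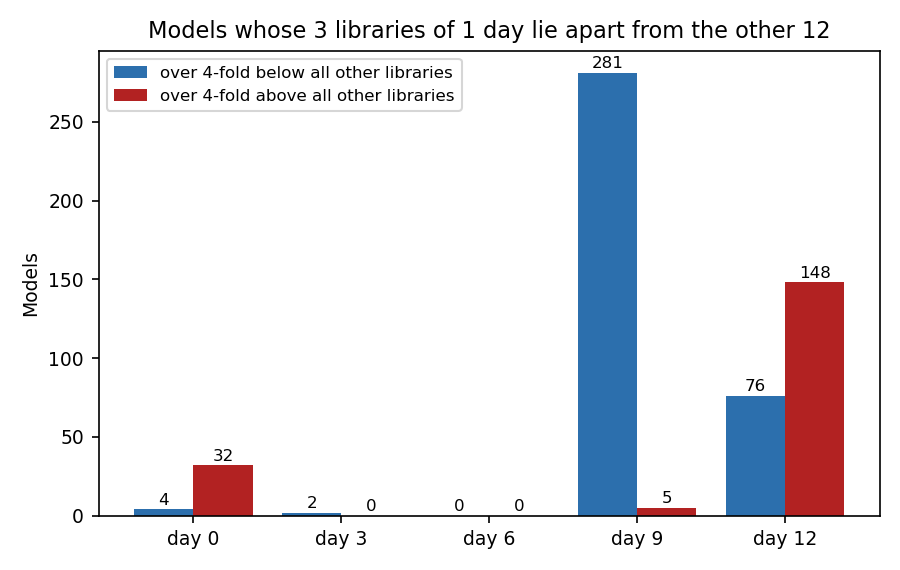
Number of tested models (vertical axis) for which all 3 libraries of a day (horizontal axis) lay more than 4-fold below (blue) or above (red) every one of the 12 libraries of other days, in CPM not corrected for length. Day 9 has 281 below and 5 above, and day 12 has 76 and 148.

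Over the 281 models the median level was 5.48 CPM at day 0, 5.82 CPM at day 3, 5.60 CPM at day 6, 0.390 CPM at day 9 and 5.50 CPM at day 12. In 116 of them the 12 other libraries lay within 2-fold of each other, and in 254 within 4-fold. Many of the 281 thus also varied between other libraries, a spread that includes that between replicates of 1 day. Their changes within bands ran from -8.89 to -1.58 on the log2 scale with a median of -3.83. They were spread over 223 scaffolds, with at most 5 on any of them. By length, 31 were in the shortest band, 46 in the longest and 4 to 21 in each other band. The choice did not correct for length, and the median log2 change was 0.49 in the shortest band and -0.83 in the longest. Longer models could thus meet it with a smaller change within bands. Models outside the Pbr set made up 19.9% of them against 5.81% of all tested models, and models in 1 block, with no intron, 28.1% against 18.9%. Since the models were chosen by their day 9 values, these changes are a description without a test.

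Groups of models formed from the table's own columns were compared with all tested models of the same bands, again as a description. Over all 29134 models the median within bands was -0.02, with 19.4% called higher and 22.9% lower. Models in 1 block, whose length equals their span, numbered 5496 and had a median of 0.06, with 1193 higher and 1113 lower. Day 9 replicates 1, 2 and 3 gave this group medians of 0.05, 0.08 and 0.06, and its median was above that of models with introns in 18 of 20 bands. The 23638 models with introns had a median of -0.04, with 4471 higher and 5548 lower. Large changes made up larger shares of the models without introns in both directions: 11.4% of the models in 1 block were at least 2-fold higher and 14.1% at least 2-fold lower, against 6.62% and 11.1% of those with introns. The median of the models in 1 block depended on what was held equal, and was -0.16 when models were compared within bands of span instead of length.

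With the models with introns cut into 4 groups of nearly equal number by the bases of intron, the medians fell a little from one group to the next. They were 0.02 for 1 to 726 bases, -0.01 for 727 to 1464, -0.06 for 1465 to 2590 and -0.07 for 2591 to 65437. In the last group 1137 models were higher and 1582 lower. Within bands of span its median was 0.08, so its direction too depended on what was held equal.

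The 1694 tested models outside the Pbr set had a median of 0.11, with medians of 0.10, 0.14 and 0.17 in the 3 day 9 libraries. They were called higher in 390 cases and lower in 399. Changes of at least 2-fold made up a larger share of them in both directions. Rises were 10.7% of them against 7.32% of the models with the Pbr prefix, and falls 19.1% against 11.2%. At least 4-fold lower were 11.1% and 4.70%. From the lowest to the highest of the 5 expression groups, 2-fold falls were 26.5%, 22.2%, 15.8%, 4% and 3.48% of them. In Pbr models these were 21.3%, 17.0%, 10.1%, 5.22% and 3.41%. In the fourth and highest groups, 41.7% and 47.8% of the models outside the Pbr set were called higher and 12.6% and 6.96% lower. Over all expression levels, their share at least 2-fold lower was above that of all models in 18 of 20 bands. Their lengths are not all multiples of 3, so a band may hold other things equal for them less well than for the Pbr models.

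**Figure D5:**
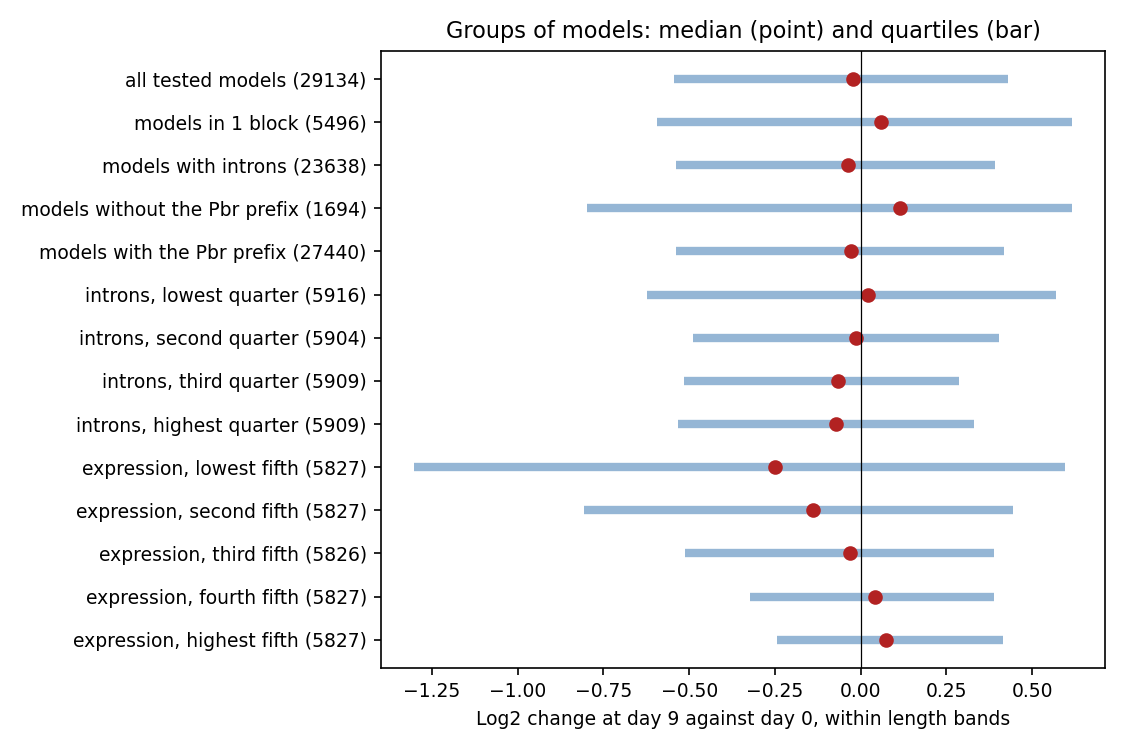
Median (point) and quartiles (bar) of the log2 change at day 9 against day 0 within length bands (horizontal axis) for all tested models and for groups by intron, prefix and mean expression (vertical axis, with the number of models). The medians lie between -0.25, in the group of lowest expression, and 0.11, in the models without the Pbr prefix.

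The share of models called lower was nearly the same in weakly and strongly expressed models, at 22.3% of the lowest group and 21.5% of the highest. The share called higher was 9.64% and 30.4%, and falls of at least 2-fold made up a larger share of the lowest group, as a description without a test. From the lowest to the highest of the 5 expression groups the medians within bands were -0.25, -0.14, -0.03, 0.04 and 0.07. The lowest group had 562 models higher and 1300 lower, and the highest 1769 and 1251. Falls of at least 2-fold made up 21.8% of the lowest group and 3.42% of the highest, while rises of that size went from 9.10% to 5.94%. The band medians were below 0 in 19 of 20 bands in the lowest group and in 2 of 20 in the highest. The mean expression that sets the groups includes the day 0 and day 9 libraries themselves, and low counts give fitted changes with more error, parts that were not tested.

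Along the scaffolds, changes were shared between neighbours only a little. Of 5072 pairs of adjacent tested models that were both called within bands, 54.6% had the same direction, against 50.8% of 3486 pairs 10 places apart and 51.9% of 1237 pairs 50 places apart. Over all adjacent pairs the correlation of the log2 changes was 0.07 (Pearson's r across pairs of models, 27662 pairs). On the 422 scaffolds with at least 20 tested models, the median change ran from -0.57 to 0.60.

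A few places nevertheless held runs of at least 4 consecutive tested models that all moved the same way by at least 2-fold in both comparisons, a call reached by 6.03% of tested models for rises and 10.1% for falls. There were 3 such runs of rises, with 12 models, and 7 of falls, with 29. On scaffold705.0, 5 of the 8 models listed between 52399 and 114893 were tested, and their summed level was 27.2, 18.1 and 22.8 CPM at day 0 and 4.40, 5.11 and 5.03 CPM at day 9. Their changes within bands ran from -6.82 to -1.67 on the log2 scale, and the summed level was 23.4, 23.3 and 19.3 CPM on average at days 3, 6 and 12. This run was thus low at day 9 alone.

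On scaffold526.0 and scaffold126.0 the mean summed level was already below that of day 0 at day 3 and day 6. On scaffold526.0, 4 models between 20152 and 81318 summed to 155, 112 and 20.2 CPM in day 0 replicates 1, 2 and 3. At day 9 they summed to 3.58, 3.32 and 10.5 CPM. The mean sum was 36.9 CPM at day 3, 20.7 CPM at day 6 and 6.90 CPM at day 12. The sum of day 0 replicate 3 lay far below those of replicates 1 and 2, though still above each day 9 sum. It also lay below each day 3 sum, the lowest of which was 24.3 CPM. The model at 61285 to 63770 had 0.615 CPM in day 0 replicate 3 and 0.979 CPM in day 9 replicate 3. That at 20152 to 21309 had 8.07 and 7.70 CPM in the same libraries. Of the 20.2 CPM in day 0 replicate 3, 11.1 CPM came from the model at 75370 to 81318. This model averaged 2.24 CPM at day 9 and 6.76 CPM at day 12. On scaffold126.0, 4 models between 208106 and 239473 summed to 17.8, 29.4 and 37.6 CPM at day 0 and to 6.12, 6.19 and 5.61 CPM at day 9. Their mean sum was 16.4 CPM at day 3, 12.4 CPM at day 6 and 10.3 CPM at day 12. Within this run, the model at 235658 to 239473 averaged 8.70 CPM at day 0, 8.14 CPM at day 3 and 6.95 CPM at day 6. It was at 2.52 CPM at day 9 and 6.49 CPM at day 12.

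On scaffold241.0, a run of 4 falling models held 1 abundant member. This short model of 294 bases on the minus strand (457076 to 457369) was at 227 CPM on average at day 0, 237 CPM at day 3 and 221 CPM at day 6, against 38.7 CPM at day 9 and 161 CPM at day 12. Its log2 change was -3.08 ± 0.171 within its band (SE, n = 3 each; adjusted p = 1.25e-07, edgeR's quasi-likelihood test), while the median of models of its length was higher at day 9.

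The runs of rises were smaller in size. On scaffold436.0, 4 models between 48754 and 290702 summed to 40.3, 47.7 and 58.6 CPM at day 0 and to 218, 204 and 178 CPM at day 9, with a median log2 change within bands of 1.78, and were at 287 CPM at day 12. On scaffold81.0, the sum of 4 models between 320679 and 357902 went from 194, 132 and 156 CPM to 510, 535 and 497 CPM. Their median log2 change within bands was 1.62, and the sum at day 12 was 711 CPM. Most of the sum came from the model at 320679 to 323831, with means of 145 CPM at day 0, 450 CPM at day 9 and 672 CPM at day 12. The other models fell from day 9 to day 12, from 18.0 to 8.90, 37.3 to 29.5 and 8.41 to 0.706 CPM. A pair of the 4 models has the same length and span of 258 bases, and reads may be shared between such copies. On scaffold115.0, 4 models between 302173 and 394456 went from 32.1, 15.7 and 18.9 CPM to 70.1, 89.2 and 75.4 CPM, with a median of 1.67, and were at 42.8 CPM at day 12. In none of these runs did the day 0 and day 9 sums overlap. The runs were chosen by changes between these same days, so this is no further support for them. With 1 library left out or a replicate block added, the 3 runs of rises kept 3 or 4 of their 4 calls, and all models of the runs on scaffold705.0, scaffold526.0, scaffold126.0 and scaffold241.0 kept theirs. Among the other runs of falls, that on scaffold148.0 kept 3 of 4 calls without day 0 replicate 3 and without each day 9 replicate in turn, and those on scaffold3.0 and scaffold395.1 kept all 4. These are calls within bands alone, without the 2-fold rule in both comparisons. By the full rule, 5 to 6 runs of falls and 1 to 5 of rises were found with 1 library left out.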

How the data were processed

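Messenger RNA of 15 libraries was measured, 3 on each of day 0, 3, 6, 9 and 12. The title speaks of 4 stages and the design text lists 5 days. The authors deposited 1 table with whole-number read counts per gene model, not normalized per the file headers and the values, and FPKM values. The deposited FPKM values were not tested: counts, length and library total gave back 97.6% of the 492150 values above 0 (relative tolerance 1e-04). Reads were placed on the *Pyrus bretschneideri* genome, per the labels, and HISAT is named per the submitters' processing notes. Not given in the sources used here are its version, the genome version, the counting program and its use of strand, so near-identical copies may share reads. All 42812 Pbr models have lengths that are multiples of 3. Coordinates are those of the deposited table.

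The counts were tested with edgeR 4.0.16 in R 4.3.3: filterByExpr by day, TMM, glmQLFit and glmQLFTest on all 15 libraries (10 residual degrees of freedom), day 9 against day 0, FDR under 0.05. For the test within bands, TMM-scaled library sizes computed within each of 20 length bands were the offsets. Standard errors are the log2 change divided by the square root of F. Intervals and floors cover counting error only. DESeq2 1.42.0, other scalings, filters, bands, a replicate block and leaving out each library were alternatives.

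Named models were the 2 largest changes per direction within bands among models called by both tests, with a log2 CPM averaging 1 or more, at least 10 counts in each library of the higher day, a count above 0 in the other and no overlap of the days. Gene lists were not used, since no ID has a name. The groups, bands and lists were chosen with earlier results of these data known.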

Additional observations from a re-analysis of the deposited data

How the results depend on the processing

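The number of models called ranged from 12491 to 16205 without regard to length and from 9831 to 14280 within bands over all alternatives; leaving out 1 library gave 12491 to 13127 and 9831 to 10990. Scaling by library totals alone moved the median change of all models to -0.15 and gave 5329 higher and 9146 lower models, with medians of 0.37 in the shortest band and -0.96 in the longest. With 1 library left out these medians were 0.48 to 0.55 and -0.87 to -0.76. Same-numbered day 0 and day 9 libraries did not deviate together (correlations of -0.03, -0.05 and -0.002), so no pairing by number was seen in these values. With 3 libraries a day this cannot show whether the numbers pair them. A replicate block gave 6661 higher and 7621 lower models, and 5595 and 6488 within bands. DESeq2 gave 7173 higher and 7814 lower. Within bands of span, the median of the models in 1 block was -0.159, of the models with the longest introns 0.0804, of the models without the Pbr prefix 0.0580 and of the group of highest expression 0.0890. With a smooth length trend removed, the models in 1 block were at 0.0840, those with the longest introns at -0.0541 and those of highest expression at 0.0938. Without a filter on low counts the last of these were at 0.0876. The models with the longest introns were then at -0.0583, and at -0.0576 with only day 0 and day 9, -0.0611 without day 6, -0.0606 with 10 bands and -0.0625 with 50 bands. With 1 library left out, the models in 1 block were at 0.0488 to 0.0810 and those with the longest introns at -0.0834 to -0.0611. The runs of rises numbered 5 without the day 6 libraries and 1 to 5 with 1 library left out (1 without day 0 replicate 2 or day 9 replicate 2, 5 without day 9 replicate 1), and the runs of falls 5 to 6. The 4 named models kept their call and direction in all alternatives run. The cause of these differences was not tested. Depth limits the models with few counts on 1 day, whose fitted changes depend on the prior count.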
